A study of Homo sapiens with 6 samples.

Results

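Claudins are the small membrane proteins that build the tight junction, and the transcripts of 10 of them, CLDN1, CLDN2, CLDN3, CLDN4, CLDN6, CLDN7, CLDN10, CLDN11, CLDN12 and CLDN18, were followed in pancreatic cancer cells with and without SAMD1. The members were chosen by symbol, and all 10 were found among the 20347 gene symbols that were measured. RNA-seq was made from PaTu8988t, an established human line of pancreatic ductal adenocarcinoma (PDAC), in 3 replicates of control cells and in 3 clonally independent SAMD1 KO clones, which gave 6 libraries. Both groups came from Lenti-CRISPR V2 constructs and puromycin selection, the Control cells with an unspecific guide RNA and the SAMD1 KO cells with guides against SAMD1, and both were grown in high-glucose DMEM with 5% FBS. Each SAMD1 KO library is therefore a clone of its own, whereas the sources used here do not say whether the 3 Control replicates were separate cultures, and the spread among them may be technical. The values are normalized counts, that is read counts divided by 1 size factor per library, and library totals ran from 35589477 to 45172216 reads. SAMD1 itself was lower in each KO library, at 2304 ± 76.1 normalized counts in Control against 926.9 ± 136 among the clones (mean ± SD, n = 3, log2 fold change −1.32, limma adjusted p = 0.000724).

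A claudin crosses the membrane several times, and its extracellular loops pair with claudins of the neighbouring cell into strands that close the gap between epithelial cells. Some members mainly seal that gap, such as CLDN1 and CLDN3, while others, such as CLDN2, form pores for small ions. Most claudins end in a short motif that binds the ZO scaffold proteins inside the cell, and the mixture of claudins sets how leaky an epithelium is. Loss of claudin expression is a familiar part of the epithelial–mesenchymal transition (EMT), the process that SAMD1 was studied for in these cells, so the question here is what the claudin transcripts did when SAMD1 was deleted.

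SAMD1 is known as a reader of unmethylated CpG islands that prefers DNA with the letters GCGC, so the promoters of the claudins are shown first. They were read from RefSeq on GRCh38.p14, in windows of 250 bases before each annotated start, and GCGC is its own reverse complement, so 1 search covers both strands. At least 1 GCGC was present in 8 of the 10 claudins and in 9 of their 15 windows, beside 53.4% of the 35116 windows of all genes. The stretches below lie before the starts of the most abundant members and of CLDN3 and CLDN11, 2 members with 3 or more GCGC, and were chosen after the expression values were seen. Letters in capitals mark GCGC, including overlapping matches.
CLDN1: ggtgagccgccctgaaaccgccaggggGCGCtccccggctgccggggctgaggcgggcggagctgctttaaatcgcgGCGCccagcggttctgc
CLDN12: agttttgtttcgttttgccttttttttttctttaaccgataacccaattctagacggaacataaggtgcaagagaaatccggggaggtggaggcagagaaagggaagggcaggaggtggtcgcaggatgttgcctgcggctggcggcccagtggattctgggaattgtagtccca
CLDN3: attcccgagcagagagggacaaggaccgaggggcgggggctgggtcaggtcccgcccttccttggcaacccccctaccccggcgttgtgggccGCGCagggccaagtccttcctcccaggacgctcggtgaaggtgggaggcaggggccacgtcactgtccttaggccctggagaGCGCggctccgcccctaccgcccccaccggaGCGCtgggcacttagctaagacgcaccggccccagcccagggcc
CLDN11: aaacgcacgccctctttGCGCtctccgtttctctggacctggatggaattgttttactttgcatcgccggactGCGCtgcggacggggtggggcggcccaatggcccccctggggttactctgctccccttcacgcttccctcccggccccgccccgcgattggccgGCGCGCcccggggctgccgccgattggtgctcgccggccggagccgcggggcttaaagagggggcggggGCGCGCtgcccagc

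The CLDN1 stretch is chr3:190322447-190322540 on the minus strand and is the part of the window that holds no annotated exon. The whole CLDN1 window holds 5 GCGC, and its distal part overlaps an annotated exon of CLDN16, a claudin transcribed from the opposite strand. The CLDN12 stretch is chr7:90403211-90403385 on the plus strand, and the whole window holds 1 GCGC that lies outside the bases shown. CLDN3 is shown at chr7:73770271-73770520 on the minus strand with 3 GCGC, and CLDN11 at chr3:170418618-170418867 on the plus strand with 6. For comparison, 29.5% of all windows hold 3 or more GCGC and the median window holds 1. The windows of CLDN4 and CLDN2 hold 0. These letters describe the DNA, and binding of SAMD1 was not analysed here.

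Among the 10 members, CLDN1 and CLDN12 had by far the highest levels. To compare levels between genes, each normalized count was divided by the length of the gene's annotated exons in kilobases (GENCODE 44, GRCh38). On that scale Control cells had 1033 ± 17.7 (SD, n = 3) normalized counts per kilobase of CLDN1 and 379 ± 13.4 of CLDN12. CLDN3 followed at 36.5 ± 2.17, CLDN4 at 14.6 ± 1.03, CLDN6 at 9.96 ± 4.07 and CLDN11 at 7.72 ± 3.15. CLDN18 stood at 3.82 ± 1.03, and CLDN7, CLDN10 and CLDN2 were at 1.88 ± 0.466, 1.59 ± 0.853 and 0.303 ± 0.288. The neighbours CLDN6 and CLDN11, and likewise CLDN7 and CLDN10, lay within each other's spread, so their order is not resolved. The order of CLDN3 and CLDN4 depends on the length used, since by the canonical transcript alone CLDN4 had 40.4 ± 2.87 and CLDN3 36.5 ± 2.17 normalized counts per kilobase. Other claudins were not ranked per length, and of them CLDN15, at 311.9 normalized counts in Control, was counted more often than CLDN3 or CLDN4.

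None of the 10 claudins passed the cut-off of the comparison, a log2 fold change beyond 0.5 with an unadjusted p below 0.01. Of the 10 members, 7 averaged 10 or more normalized counts across the libraries and were tested, and 3 (CLDN2, CLDN7 and CLDN10) averaged less. With limma, 0 of the 7 were called higher and 0 lower, 0 had an adjusted p below 0.05, and 1 (CLDN12) had an unadjusted p below 0.05. Across all 12773 tested genes 7.85% were called, 5.77% higher and 2.08% lower. An adjusted p below 0.05 was reached by 13% of them (8.32% higher, 4.7% lower), and an unadjusted p below 0.05 by 29.6%. At the background share fewer than 1 of 7 genes would be called, so a count of 0 is near it and says little about the family. The groups were without overlap for 1 of the 7 (CLDN12) and for 37.8% of all tested genes, of which 19.2% lay higher and 18.6% lower in the KO clones. The median log2 fold change of the 7 was 0.12, against −0.0059 for all tested genes, with 5 members positive and 2 negative.

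**Figure D1:**
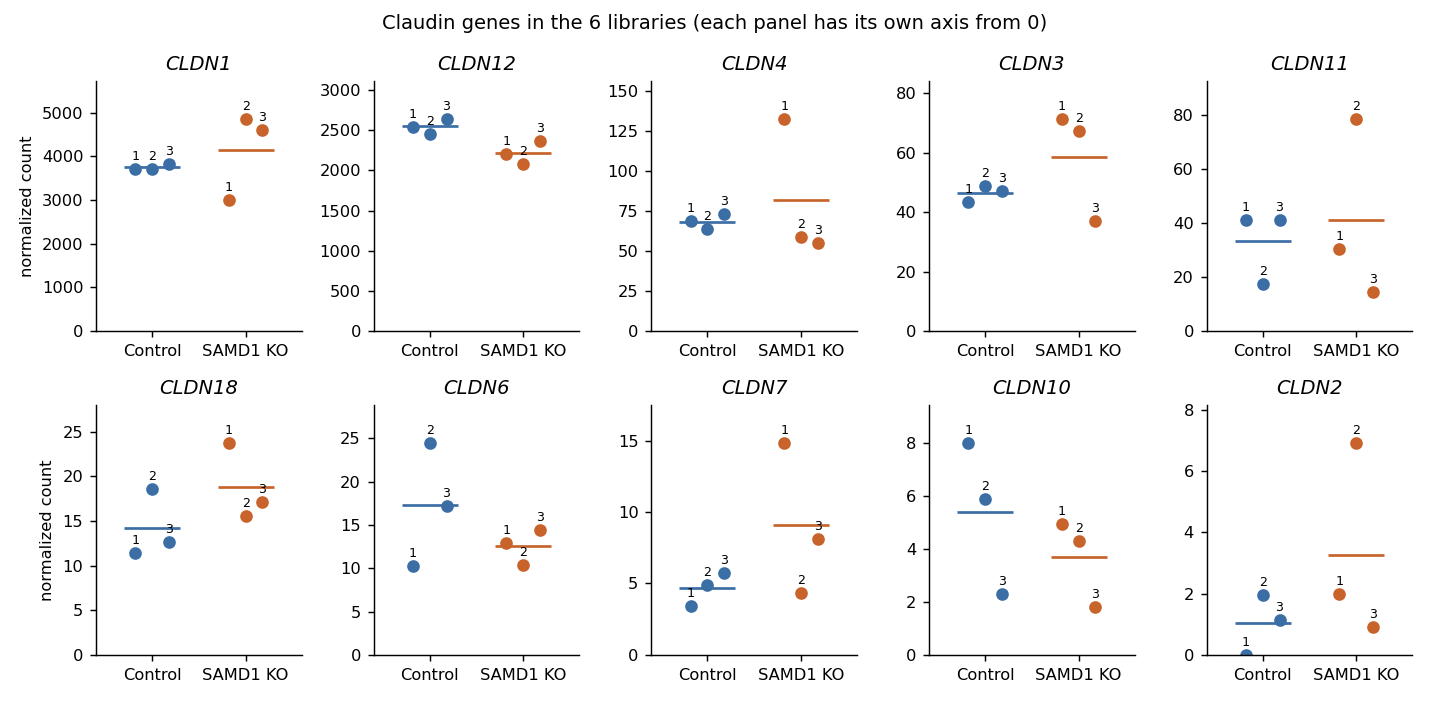
Normalized counts of the 10 claudins in each of the 6 libraries, 1 panel per gene with its own linear axis from 0, with points numbered by Control replicate or SAMD1 KO clone and horizontal bars for the group means. CLDN12 is the member whose 3 clones (2081 to 2368) all lie below the 3 Control libraries (2455 to 2635), while clone 1 stands apart for CLDN1 (3006) and CLDN4 (132.5).

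CLDN1, a sealing claudin and the most abundant member, did not pass the cut-off, and the clones split around the Control level. Its normalized counts were 3719, 3701 and 3820 in Control replicates 1 to 3 and 3006, 4850 and 4608 in SAMD1 KO clones 1 to 3. Clone 1 was therefore below every Control library and clones 2 and 3 above every one, so the groups overlapped. The means were 3747 ± 64.2 and 4155 ± 1002 (SD, n = 3), a log2 fold change of 0.12 with a 95% interval from −0.28 to 0.51 (SE 0.17, limma adjusted p = 0.683). An exact permutation test of the same 6 values gave p = 0.6, where 3 against 3 libraries cannot give less than 0.1. The gene lies at chromosome 3, 190305707 to 190322446, on the minus strand.

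The CLDN1 value rested on which clones were included. Relative to the Control mean, clones 1 to 3 were at −0.32, 0.37 and 0.30 on the log2 scale. Without clone 1 the log2 fold change was 0.34 (SE 0.050, limma adjusted p = 0.00752), below the fold-change minimum of a call, and without clone 2 it was −0.0095. The SD of log2 CLDN1 was 0.0246 among Control replicates and 0.379 among the clones, which puts its clone spread at percentile 85.3 of all tested genes. A larger spread among the clones was general, since it was seen in 82.8% of tested genes and in 5 of the 7 claudins. The 3 genes whose log2 levels followed CLDN1 most closely over the 6 libraries were PLCG2 (Pearson r = 0.997), RNF214 (r = 0.994) and PPP1R3G (r = 0.992). PLCG2, a phospholipase C of immune receptor signalling, had 594.8, 590.0 and 587.6 normalized counts in Control and 445.0, 832.8 and 771.7 in the clones. These r values describe 6 libraries of which 3 are nearly equal, so they rest on the differences among the clones.

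CLDN12 was the member whose level differed most evenly between the groups. It is an atypical claudin that lacks the usual ZO-binding motif. Its normalized counts were 2543, 2455 and 2635 in Control and 2205, 2081 and 2368 in clones 1 to 3, so every clone was below every Control library. The means were 2544 ± 89.9 and 2218 ± 144 (SD, n = 3), a ratio of 0.872. The log2 fold change was −0.20 with a 95% interval from −0.35 to −0.044 (SE 0.066, limma unadjusted p = 0.0184, adjusted p = 0.0932), and the exact permutation p was 0.1, the smallest possible. The difference did not pass the adjusted threshold and its whole interval lay within 0.5 of 0 on the log2 scale, as it did for 60.6% of all tested genes and for no other tested claudin. With 1 library left out the value ran from −0.25 to −0.15, and the adjusted p from 0.0378 (without clone 3) to 0.306.

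CLDN12 lies at chromosome 7, 90383721 to 90513402, on the plus strand, and its annotated span overlaps 4 annotated genes of the same strand, with which the counting could share reads. Of these, CDK14 and GTPBP10 had values here. CDK14, a cyclin-dependent kinase, had 631.6 ± 10.8 normalized counts in Control against 816.6 ± 7.14 among the clones (SD, n = 3), a log2 fold change of 0.37 (limma adjusted p = 0.0137). GTPBP10, a mitochondrial ribosome factor, had 992.1 ± 48.4 and 892.2 ± 30.0 (log2 fold change −0.15, limma adjusted p = 0.199). Neither passed the cut-off, and a share of their reads in the CLDN12 value was not tested. When the median shift of 40 neighbouring genes was removed from each library, the CLDN12 log2 fold change was −0.22 (limma adjusted p = 0.0365).

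**Figure D2:**
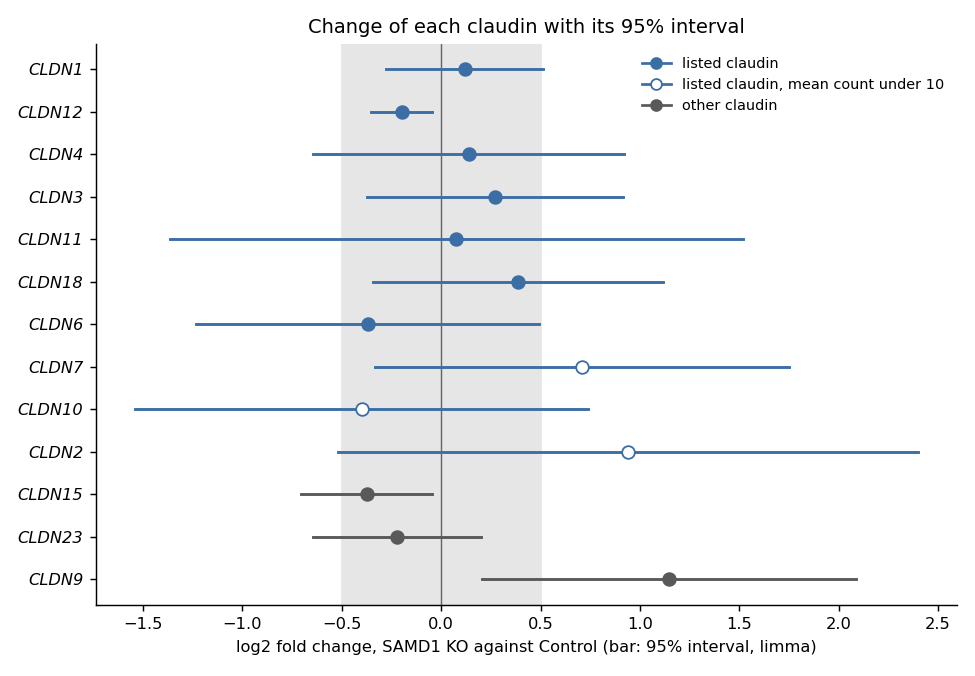
Log2 fold change between SAMD1 KO and Control for the 10 claudins (blue, open points for those with a mean count under 10) and the 3 other tested claudins (grey), with bars for the 95% limma interval (n = 3 against 3) and a shaded band within 0.5 of 0. The bar of CLDN12 (−0.35 to −0.044) lies wholly inside the band, and that of CLDN11 (−1.37 to 1.52) crosses it on both sides.

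CLDN3 and CLDN4, the receptors of Clostridium perfringens enterotoxin and both on chromosome 7, were expressed at a low level. Both had higher values in some clones than in any Control library. CLDN4 had 68.6, 63.6 and 73.3 normalized counts in Control and 132.5, 58.7 and 54.9 in clones 1 to 3. Clone 1 thus had more CLDN4 than any other library and the other clones less than any Control library. Behind these values lie 134, 68 and 61 reads in the clones, and the exact 95% counting intervals were 111.0 to 156.9 in clone 1, 45.6 to 74.5 in clone 2 and 42.0 to 70.5 in clone 3. The interval of clone 1 does not reach that of any other library, whereas those of clones 2 and 3 overlap the Control intervals. Such intervals cover counting error only. The means were 68.5 ± 4.86 and 82.0 ± 43.7 (SD, n = 3), a log2 fold change of 0.14 with a 95% interval from −0.64 to 0.92 (limma adjusted p = 0.818). Without clone 1 it was −0.26. The spread of CLDN4 among the clones was at percentile 96.0 of all tested genes.

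CLDN3 had 43.5, 48.9 and 47.0 normalized counts in Control and 71.2, 67.4 and 36.9 in clones 1 to 3. Here clones 1 and 2 were above every Control library and clone 3 below every one. The counting intervals of clones 1 and 2, 55.7 to 89.7 and 53.3 to 84.1, did not reach that of clone 3, 26.5 to 50.03. Those of all 3 clones overlapped every Control interval, which were 30.8 to 59.7, 36.3 to 64.5 and 33.7 to 63.7. Counting error alone therefore leaves the place of each clone above or below Control unresolved for CLDN3. The means were 46.5 ± 2.76 and 58.5 ± 18.8 (SD, n = 3), with a log2 fold change of 0.27 and a 95% interval from −0.37 to 0.92 (limma adjusted p = 0.554). Without clone 3 it was 0.57 (limma adjusted p = 0.0767). CLDN3 lies at 73768997 to 73770270 on the minus strand and CLDN4 at 73799542 to 73832690 on the plus strand. By value, and apart from counting error, clone 1 was above every Control library and clone 3 below every one for both genes. Clone 2 was above every Control library for CLDN3 and below every one for CLDN4.

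CLDN11, known from myelin and from the blood–testis barrier, varied the most among the members tested. Its normalized counts were 41.2, 17.6 and 41.2 in Control and 30.7, 78.6 and 14.4 in clones 1 to 3, so both groups held a high and a low library. Clone 2, with a counting interval from 63.3 to 96.5, lay above every other library, and clone 3, from 8.23 to 23.4, was the lowest. The log2 fold change was 0.075 with a 95% interval from −1.37 to 1.52 (SE 0.61, limma adjusted p = 0.950), and it was −0.54 without clone 2 and −0.32 without Control replicate 2. The SD of log2 CLDN11 was 0.682 among Control replicates and 1.19 among clones, percentile 99.1 of all tested genes. This interval is wide enough to hold a change of more than 1 on the log2 scale in either direction.

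CLDN18 and CLDN6 were close to the count minimum. CLDN18, whose gastric isoform is a drug target in gastric and pancreatic cancers, had 11.4, 18.6 and 12.6 normalized counts in Control and 23.7, 15.6 and 17.1 in the clones. The log2 fold change was 0.39 (95% interval −0.34 to 1.12, limma adjusted p = 0.447), and the counts per gene do not separate its gastric from its lung isoform. CLDN6, an oncofetal claudin, had 10.3, 24.5 and 17.2 in Control and 12.9, 10.4 and 14.4 in the clones, with overlapping groups. Its log2 fold change was −0.37 (95% interval −1.23 to 0.49, limma adjusted p = 0.545). The CLDN6 gene overlaps TNFRSF12A on the opposite strand, which had 6424 ± 214 normalized counts in Control. A share of TNFRSF12A reads in the CLDN6 value was not tested. The intervals hold a rise beyond 0.5 of CLDN18 and a fall beyond 0.5 of CLDN6.

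The 3 members below the count minimum were read from a fit with every gene kept. CLDN7, an epithelial claudin of the lateral membrane, had 3.43, 4.89 and 5.73 normalized counts in Control and 14.8, 4.32 and 8.10 in clones 1 to 3. Clone 1 was again the highest, from 15 reads against 3 to 9 in the other libraries, and the log2 fold change was 0.71 (95% interval −0.33 to 1.75, limma adjusted p = 0.381). CLDN10, which forms ion pores, had 8.01, 5.87 and 2.29 in Control and 4.94, 4.32 and 1.80 in the clones (log2 fold change −0.40, limma adjusted p = 0.671). CLDN2, the cation pore, was counted in 3 reads over all Control libraries and 11 over all clones, of which 8 were in clone 2. The ratio of CLDN2 levels was 3.10 with an exact counting interval from 0.818 to 17.3. All 3 overlap an annotated gene of the opposite strand, and the strand setting of the counting is not given in the sources used here. MORC4 over CLDN2 was at 976.5 ± 61.2 normalized counts in Control against 1317 ± 42.2 among the clones (SD, n = 3, log2 fold change 0.43), and RIPPLY1, also there, had 0 reads. ELP5 over CLDN7 had 2062 ± 51.6 normalized counts in Control (log2 fold change −0.12). DZIP1 over CLDN10 had 5243 ± 142 in Control (log2 fold change −0.058). CLDN7 also overlaps an annotated gene of its own strand that was not analysed here, and the part of shared reads in these values was not tested.

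**Figure D3:**
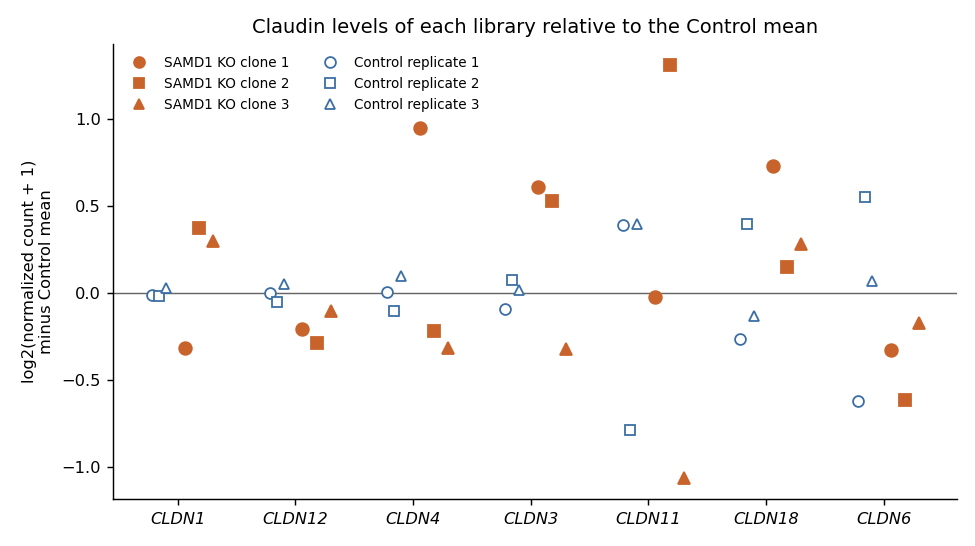
Log2(normalized count + 1) of the 7 tested claudins minus the Control mean, with open blue symbols for the Control replicates and filled orange symbols for the SAMD1 KO clones (circle, square and triangle for numbers 1 to 3). Clone 1 is low for CLDN1 (−0.32) and high for CLDN4 (0.94), clones 2 and 3 are high for CLDN1 and low for CLDN4, and all 3 clones lie below 0 for CLDN12.

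The clones differed in their mixture of the 10 members. Other claudins, such as CLDN15 with 311.9 normalized counts in Control, are not part of the sums and shares below. Summed over the 10 members, the level per kilobase was 1475, 1466 and 1524 in Control and 1270, 1746 and 1684 in clones 1 to 3. The means were 1488 ± 31.5 and 1567 ± 259 (SD, n = 3), a ratio of 1.05, and clone 1 lay below all Control libraries while clones 2 and 3 lay above. CLDN1 made up 69.5%, 69.6% and 69.1% of the sum in Control and 65.2%, 76.6% and 75.4% in the clones. CLDN12 made up 25.7%, 24.97% and 25.8% in Control and 25.9%, 17.8% and 21.0% in the clones. The other 8 members held from 4.81% to 5.41% in Control, and 8.89%, 5.66% and 3.61% in clones 1 to 3. CLDN1 exceeded CLDN12 per kilobase by a factor of 2.704, 2.788 and 2.681 in Control and of 2.52, 4.31 and 3.60 in the clones. With canonical transcript lengths the CLDN1 share was lower, 56.3% to 57.1% in Control and 52.2%, 66.0% and 63.8% in the clones. The CLDN12 share was then 36.9% to 37.8% in Control and 37.4%, 27.6% and 32.0% in the clones, and CLDN1 exceeded CLDN12 by a factor of 1.499, 1.546 and 1.487 in Control and of 1.40, 2.39 and 1.99 in the clones. The clones kept their order under both lengths.

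**Figure D4:**
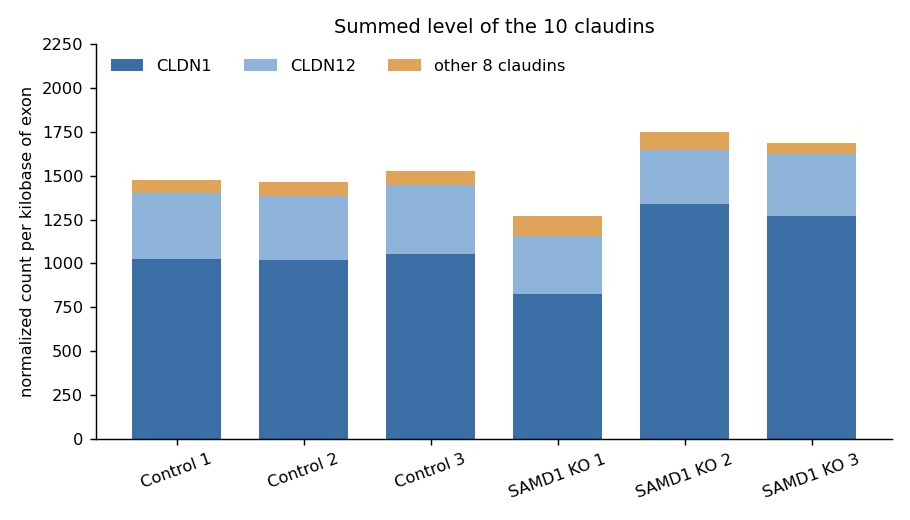
Summed level of the 10 claudins in normalized counts per kilobase of exon for each of the 6 libraries, with each bar, from 0, divided into CLDN1, CLDN12 and the other 8 members. Control libraries stand between 1466 and 1524, clone 1 at 1270 and clones 2 and 3 at 1746 and 1684, and CLDN1 holds most of each bar.

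The genes around the claudins were also read. The median log2 difference from the Control mean over the 40 genes around each tested claudin was at most 0.131 in size in any clone, and a median of many genes varies less than a single gene by construction.

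The other 14 claudins of the file added few values. Of these, 3 were tested and by limma 0 called, beside 7.85% of all tested genes, and with 3 genes a count of 0 is near that share. At an unadjusted p below 0.05, reached by 29.6% of all tested genes, 1 was higher and 1 lower by limma. The groups were without overlap for 1 higher and 1 lower, and for 37.8% of all tested genes. CLDN9, a claudin of the inner ear, had 10.3, 10.8 and 11.5 normalized counts in Control and 46.5, 19.9 and 17.1 in clones 1 to 3. Every clone was above every Control library and clone 1 the highest, with a log2 fold change of 1.15 (95% interval 0.21 to 2.08, limma adjusted p = 0.108). CLDN15, a cation pore of the intestine, had 306.6, 320.9 and 308.1 in Control and 213.6, 293.7 and 221.3 in the clones, all below Control (log2 fold change −0.37, limma adjusted p = 0.128). Without clone 2 it reached −0.52 with an adjusted p of 0.0213. CLDN16, singled out after its values were seen because it neighbours CLDN1, was counted in 3 reads over Control and 18 over the clones, a ratio of 5.06 (exact counting interval 1.48 to 26.8). It averaged less than the count minimum, and in the fit with every gene kept, where it had a log2 fold change of 1.72 (limma unadjusted p = 0.00927, adjusted p = 0.0753) and no overlap of the groups, it would pass the cut-off. No reads were found in any library for 5 of the 14, namely CLDN8, CLDN17, CLDN22, CLDN25 and CLDN34.

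Several genes that claudins work with were called. Of 28 tight junction partners 25 were tested, of which 2 were called higher, 3 lower and 20 neither, that is 20% called beside 7.85% of all tested genes, and the median log2 fold change was −0.088. CGN, cingulin, which ties the junction plaque to actin and microtubules, had 811.0, 930.5 and 832.8 normalized counts in Control and 270.9, 275.6 and 222.2 in the clones. It fell in every clone, with a log2 fold change of −1.74 (SE 0.11, limma adjusted p = 0.000376). LSR, angulin-1 of tricellular contacts, fell from 3356 ± 207 to 2290 ± 91.7 (SD, n = 3, log2 fold change −0.55, limma adjusted p = 0.00297). CXADR, the coxsackievirus and adenovirus receptor of the junction, fell from 662.7 ± 24.2 to 383.0 ± 100 (log2 fold change −0.82, limma adjusted p = 0.0225). MAGI1, a scaffold of tight and adherens junctions, rose from 1083 ± 19.3 to 1796 ± 34.7 (log2 fold change 0.73, limma adjusted p = 0.000698).

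The fifth called partner, named beyond the limit of 4 genes per list, was JAM2, a junctional adhesion molecule, at 50.1 ± 3.57 normalized counts in Control and 87.4 ± 18.8 among the clones (SD, n = 3, limma adjusted p = 0.0461). It lost its call in 5 of the 6 fits with 1 library left out. Without clone 3, the partners F11R (−1.21), MARVELD2 (−1.15) and ILDR2 (−1.80) passed the cut-off as lower, and they are named because of that. F11R, which encodes JAM-A, had 286.8, 234.1 and 605.3 normalized counts in clones 1 to 3, beside 587.1 to 623.4 in Control, so clone 3 was at the Control level. Occludin, the classical partner of claudins in the strand, was at a log2 fold change of −0.088 (OCLN, limma adjusted p = 0.802). TJP1, which encodes the ZO scaffold protein ZO-1, was lower in every clone than in any Control library. Its log2 fold change of −0.32 (limma adjusted p = 0.0157) was below the fold-change minimum in size.

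Among 17 kinases, proteases and turnover factors of claudins, 13 were tested, 2 were called higher and 1 lower (23.1% called, beside 7.85% of all tested genes). EPCAM, a membrane protein that binds claudins, was at a log2 fold change of −0.065 (limma adjusted p = 0.804). WNK4, a kinase known to act on claudin phosphorylation, fell from 364.4 ± 21.4 to 165.4 ± 21.0 (log2 fold change −1.14, limma adjusted p = 0.00237). STK39, the SPAK kinase downstream of the WNK kinases, rose from 1756 ± 24.2 to 2978 ± 323 (log2 fold change 0.76, limma adjusted p = 0.00227). PMP22, a relative of the claudins found at tight junctions, rose from 1869 ± 25.2 to 3547 ± 1000 (log2 fold change 0.89, limma adjusted p = 0.019).

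**Figure D5:**
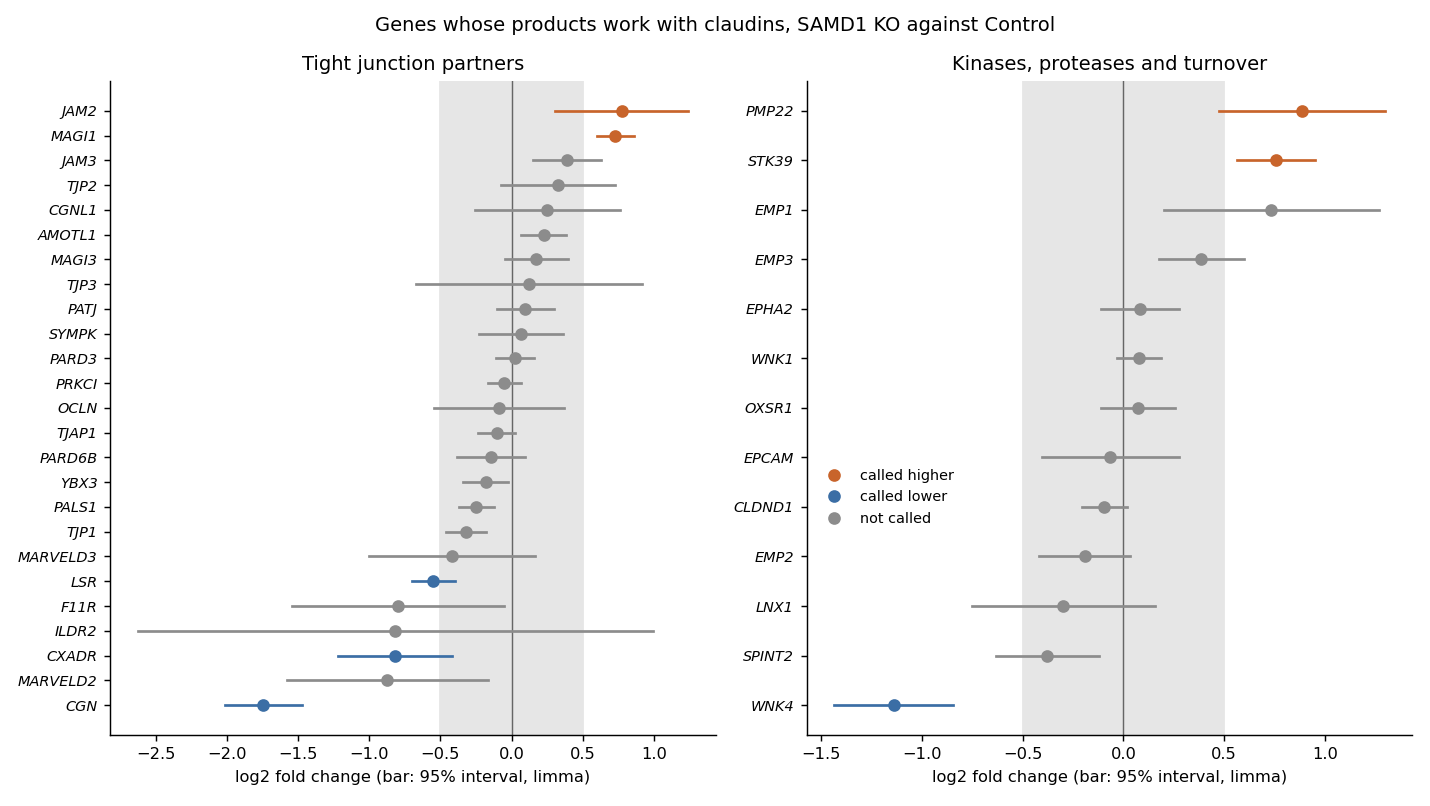
Log2 fold change between SAMD1 KO and Control (points) with 95% limma intervals (bars, n = 3 against 3) for the 25 tested tight junction partners of claudins (left) and the 13 tested kinases, proteases and turnover factors (right), with a shaded band within 0.5 of 0. Called genes are orange (higher) or blue (lower), and CGN (−1.74) on the left and WNK4 (−1.14) on the right lie furthest below 0.

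Among 25 transcription factors reported at claudin genes, 15 were tested, 4 were called higher and 0 lower (26.7% called, beside 7.85% of all tested genes), with 0 lower at an unadjusted p below 0.05. ZEB1, a repressor of epithelial genes, rose from 2035 ± 45.5 to 3072 ± 58.9 (SD, n = 3, log2 fold change 0.59, limma adjusted p = 0.000895). The other 3 are factors of epithelial and endodermal cells. FOXA1 rose from 260.3 ± 11.9 to 553.5 ± 57.9, GRHL1 from 138.9 ± 24.2 to 411.1 ± 89.0 and GATA6 from 42.5 ± 5.34 to 180.2 ± 68.9, with limma adjusted p-values of 0.00147, 0.0041 and 0.00467. The other 11 tested factors were not called, and the median log2 fold change of the 15 was 0.12. Whether any of these factors acted on the claudins was not tested.

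The cell type markers were checked beside these values. Of 6 epithelial markers 5 were tested and 2, KRT7 and KRT18, were called higher (40% called, beside 7.85% of all tested genes). KRT19 was listed at 0 in all libraries. CDH1, encoding E-cadherin, was low in both groups, at 38.3 ± 12.4 and 41.5 ± 3.43 normalized counts (SD, n = 3). The summed epithelial markers ran from 62727 to 65936 in Control and from 67655 to 108596 in the clones. KRT7 rose from 30.2 ± 3.96 to 84.2 ± 6.31 and KRT18 from 29567 ± 318 to 43002 ± 9100 (SD, n = 3), with limma adjusted p-values of 0.00392 and 0.0598. With 1 library left out, KRT7 was called in 6 of 6 fits and KRT18 in 1 of 6. Of 9 fibroblast and stellate markers 4 were tested and 1 was called higher (25% called, beside 7.85% of all tested genes). That was PDGFRA, at 3.98 against 17.9, which met the count minimum only through the clones (10.9 over the 6 libraries). Its call is therefore not independent of that minimum. COL3A1 was next (log2 fold change 1.13, limma adjusted p = 0.0881). The other 2, COL1A1 (log2 fold change −1.04, limma adjusted p = 0.098) and ACTA2 (−0.25, limma adjusted p = 0.116), lay lower in every clone than in Control, as did 18.6% of all tested genes. The sum of the fibroblast list ran from 575.3 to 586.8 in Control and from 492.0 to 825.9 in the clones. Of 10 endothelial and leukocyte markers 4 were tested and by limma 0 called, beside 7.85% of all tested genes. CDH5 was at −1.80 (limma adjusted p = 0.0748) and CD68 at −0.31 (limma adjusted p = 0.155). Both were below an unadjusted p of 0.05, as were 29.6% of all tested genes. The sum of the endothelial and leukocyte list ran from 437.0 to 463.8 in Control and from 300.7 to 417.4 in the clones. In bulk RNA, fewer cells with a transcript and less RNA per cell cannot be told apart, and the part of such differences in the claudin values was not tested.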

How the data were processed

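RNA was sequenced from PaTu8988t Control cells (3 replicates) and SAMD1 KO clones (3), and groups were taken from the sample labels. The authors aligned reads with RNA-STAR (GenCode 43), counted them per gene with featureCounts according to the submitters' processing notes, and deposited the resulting signal as normalized counts, that is counts divided by 1 DESeq2 size factor per library. The strand setting is not given in the sources used here. The authors' table of their own comparison (mean, log2 fold change, errors, p-values) was not used. No per-sample column was left unused (0). All values are whole multiples of 1 step per library (within 0.01 of a read), from which reads, totals (35589477 to 45172216) and exact Poisson intervals (95%, counting error only) were derived.

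The 12773 of 20347 genes that averaged 10 or more normalized counts were compared on log2(normalized count + 1) with limma 3.58.1 (lmFit, eBayes with trend) in R 4.3.3, two-sided, with Benjamini-Hochberg adjustment over all of them. A call was a log2 fold change beyond 0.5 with an unadjusted p below 0.01, the study's cut-off. In data simulated for this comparison (12722 genes, 200 changed 2-fold), 195 were recovered and 15 unchanged genes were called. The simulation gave every gene and both groups the same dispersion, whereas 82.8% of tested genes spread more among the clones. Its recovery therefore does not give the power for claudins that differ widely among the clones. Positions and exon lengths came from GENCODE 44 on GRCh38, with 190 symbols matched through synonyms and 99.3% of tested genes placed. Other steps used Python 3.11.15, pandas 2.3.3 and SciPy 1.17.1.

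The members and gene lists were chosen with earlier results of these data known. Named genes are the 10 claudins, SAMD1, at most 4 called genes per list (the 2 with the smallest p where fewer than 2 were called) and the 3 genes most like CLDN1. JAM2, F11R, MARVELD2, ILDR2, OCLN, EPCAM, CDH1, KRT19, CLDN16, CDK14, GTPBP10, MORC4, RIPPLY1, ELP5, DZIP1, TNFRSF12A, COL1A1, ACTA2, TJP1, PALS1 and the claudins without reads were named after their values were seen. One listed gene is not reported here and was left out of its list's counts. Replicate numbers were not used as pairs in the main fit, and alternatives are given in the closing section.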

Additional observations from a re-analysis of the deposited data

How the results depend on the processing

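Of the 10 claudin members, 0 were called with a pseudocount of 0.1 or 10, no count minimum or a mean of 50, rescaling by the 75th percentile, an adjusted p below 0.05 with no fold-change minimum, the replicate block and each library left out. Of the other claudins, CLDN16 passed the cut-off with no count minimum (1.72) and CLDN15 without clone 2 (−0.52). Of the values recomputed for single claudins, 114 kept direction without passing the cut-off and 4 reversed, namely CLDN1 (−0.0095 without clone 2), CLDN4 (−0.26 without clone 1) and CLDN11 (−0.32 without Control replicate 2 and −0.54 without clone 2). Among those that kept direction, the limma adjusted p fell below 0.05 for CLDN1 without clone 1 (0.00752). For CLDN12 it did so without clone 3 (0.0378) and with the neighbourhood shift removed (0.0365). With 1 library left out, CLDN1 ran from −0.0095 to 0.34, CLDN4 from −0.26 to 0.36 and CLDN11 from −0.54 to 0.64. Over all genes, 737 were called higher and 266 lower. An adjusted p below 0.05 with the fold-change minimum dropped gave 600 lower genes, and leaving out 1 library gave 569 to 859 higher and 177 to 369 lower, the 177 without Control replicate 2. Tight junction partners called lower numbered 5 under that rule, TJP1 and PALS1 being below the minimum in size, and epithelial markers called higher 1. With 1 library left out, an alternative added after seeing the data, 1 to 2 partners were called higher and 3 to 6 lower, the 6 without clone 3, and the cause was not tested. The summed claudin ratio ran from 0.992 to 1.15. Same-numbered samples had correlations of 0.0391, 0.134 and 0.0318 of their deviations from the group means, and different-numbered samples from −0.0745 to 0.0360. Deviations from a group mean sum to 0, so these correlations balance around 0 and cannot decide whether the numbers pair the samples. The replicate block gave 725 higher and 259 lower genes. Count models (edgeR and DESeq2) were planned and not run. With 3 libraries a group, the intervals of the tested claudins other than CLDN12 reach beyond 0.5 on the log2 scale.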
